A study of Mus musculus with 10 samples.

Results

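Cycling LysoDCs are the LysoDCs of mouse Peyer's patches that carried transcripts of several genes of cell division. A LysoDC of dataset 1 was counted as cycling when it held at least 1 UMI (unique molecular identifier, a counted mRNA molecule) in 3 or more of 6 genes, Mki67, Top2a, Birc5, Ube2c, Cenpf and Nusap1. By this rule 157 of the 2714 LysoDCs of dataset 1 were cycling, out of 14687 cells analysed in the whole series. They were set against the 1181 LysoDCs of the same gates that had 0 UMIs in all 6 genes, while 1376 LysoDCs with 1 or 2 of the genes lay between. The cells were chosen by their own UMIs of the 6 genes, so the levels of these genes and those of every other gene in this contrast are a description, and no test was made on them.

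LysoDCs are lysozyme-expressing phagocytes of the lymphoid patches that line the small intestine. The study set them beside type 2 conventional dendritic cells (cDC2s), likewise from the patches, and beside blood cells with high CD115. All mice were female C57BL/6Rj, the Peyer's patch donors were untreated, and the blood donors had received clodronate liposomes, which deplete phagocytes, 9 days earlier. In dataset 1, phagocytes pooled from 30 mice were enriched with CD11c beads after collagenase and DNase digestion, sorted into follicular, immature, intermediate and mature LysoDC gates, and then tagged with hashtags, antibodies that carry a DNA barcode for the gate, so each gate is 1 sample of pooled animals without a replicate. Dataset 2 came from 20 other Peyer's patch donors, was tagged before the sort, and its LysoDC hashtags could not be assigned to gates.

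A dividing cell copies its DNA in S phase and separates the copies in mitosis, with a gap phase before each. The retinoblastoma family holds E2F factors silent until cyclin and cyclin-dependent kinase (CDK) pairs release them, and E2F then drives genes of DNA replication. Genes of G2 and mitosis follow later under the MuvB complex with B-Myb and FoxM1. Tissue phagocytes can be maintained by division in place or by entry of blood monocytes, and LysoDCs are described as monocyte-derived. Mki67 encodes Ki-67, a coat of mitotic chromosomes, and Top2a the topoisomerase that untangles replicated DNA. Birc5 encodes survivin, a subunit of the chromosomal passenger complex, and Ube2c an enzyme that hands ubiquitin to the targets of the anaphase-promoting complex. Cenpf encodes a kinetochore protein and Nusap1 a protein that bundles spindle microtubules.

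Upstream sequence is shown for 3 of the genes that chose the cells and for Ccnb2, the cyclin B2 gene. Short motifs were frequent around the starts, before and after them, of the mitotic genes that were high in cycling LysoDCs. The sequences are those of RefSeq on GRCm38.p6, read 5′ to 3′ on the gene's strand and ending before the transcript start. Capitals mark the CCAAT box (CCAAT) and the cell cycle homology region (TTTGAA or TTCGAA), on either strand. The Mki67 stretch is chr7:135716460-135716579 on the minus strand, from 200 to 81 bases before the start. That of Top2a is chr11:99024190-99024389 on the minus strand and covers the 200 bases before the start. The Cenpf stretch, chr1:189688087-189688226 on the minus strand, covers 140 bases, and that of Ccnb2, chr9:70421555-70421654 on the minus strand, covers 100 bases.
Mki67: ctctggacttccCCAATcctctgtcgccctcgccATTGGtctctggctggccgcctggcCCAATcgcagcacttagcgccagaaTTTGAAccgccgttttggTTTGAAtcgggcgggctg
Top2a: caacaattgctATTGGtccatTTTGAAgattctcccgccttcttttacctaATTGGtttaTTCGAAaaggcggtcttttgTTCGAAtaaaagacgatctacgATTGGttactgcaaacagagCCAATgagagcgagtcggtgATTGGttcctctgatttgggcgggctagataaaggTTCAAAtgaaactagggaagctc
Cenpf: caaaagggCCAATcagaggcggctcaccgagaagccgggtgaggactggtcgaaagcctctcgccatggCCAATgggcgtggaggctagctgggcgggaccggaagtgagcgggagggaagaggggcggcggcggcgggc
Ccnb2: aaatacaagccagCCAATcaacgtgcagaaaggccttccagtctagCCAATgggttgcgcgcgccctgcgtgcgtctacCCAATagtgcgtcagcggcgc

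The Mki67 stretch held 5 matches, the Top2a stretch 9, the Ccnb2 stretch 3 and the Cenpf stretch 2. All matches in the Ccnb2 and Cenpf stretches were CCAAT boxes. The homology region of Cenpf began at base 3 of the transcript, and those of Ccnb2 at 167 bases before the start and at base 5 of the transcript. Over windows from 250 bases before to 50 bases after the start, a cell cycle homology region and a CCAAT box were both found for Mki67, Top2a, Ube2c and Cenpf, whereas Birc5 and Nusap1 had no match to either. The same windows were read for 64 genes of the kinetochore, spindle, and G2 and mitosis lists that were at least 2-fold higher in cycling LysoDCs, as 6.12% of all tested genes were. Most tested genes of these lists reached a limit of 100 UMIs only through cycling cells. They were 14 of 19 kinetochore, 20 of 29 spindle, and 23 of 40 G2 and mitosis genes. The motif shares describe the set so chosen. Of the 64 genes 55 were matched, with 62 promoters. The homology region was present in 74.2% of these promoters, against 19.2% of all 32851 promoters. A CCAAT box was present in 72.6%, against 37.4% of all, and both motifs together in 58.1%, against 7.52%. E2F motifs (TTTCGCGC, TTTGGCGC, TTCCCGCC and TTTCCCGC, of which the last 2 overlap) were found in 9.68% of the mitotic promoters and in 3.49% of all. Motif shares of the replication genes are not given, because 39 of 52 genes (75%) had a promoter in the table, a smaller part than in the other sets. The E2F shares given here therefore leave out the replication genes as a set. Promoters of genes that were lower in cycling LysoDCs held the homology region in 9.03% and the CCAAT box in 36.1% of 155 cases (119 of 142 genes matched). A match is a run of letters and not a measured binding site.

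Dataset 1 held 91530239 gene UMIs in 11878 barcodes and dataset 2 held 81034175 in 13111. In dataset 1, 8343 barcodes carried 1 hashtag, 2422 several and 1113 none, and 7217 cells were used. The labels give 16600 sorted LysoDCs, of which 3607 barcodes had 1 LysoDC hashtag and 2714 passed the filters (at least 1000 UMIs and 500 genes, and at most 10% mitochondrial UMIs). Cycling cells were deeper, with a median of 16597 UMIs and 3803 genes against 11844 UMIs and 2979 genes in cells with 0 of the 6 genes. Their gate-wise medians ran from 13280 to 20250 UMIs, against 9699 to 13050.5. The median mitochondrial share was 3.01% and 3.34%. The datasets shared 37 barcodes, of which 0 belonged to cycling LysoDCs of dataset 1.

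Cycling cells were found in every LysoDC gate. They made up 5.78% of all LysoDCs (157 of 2714, exact Clopper-Pearson 95% interval 4.94 to 6.73). The share was 4.83% of follicular LysoDCs (30 of 621, 3.28 to 6.82), 7.63% of immature LysoDCs (50 of 655, 5.72 to 9.94), 6.31% of intermediate LysoDCs (62 of 983, 4.87 to 8.01) and 3.30% of mature LysoDCs (15 of 455, 1.86 to 5.38). The order therefore ran from immature through intermediate and follicular to mature cells, and each neighbour in it had an overlapping interval. The intervals of the immature and mature gates, the ends of the order, did not overlap. These intervals cover counting error only, since each gate is 1 pool.

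Thinning every cell to 5000 UMIs lowered the share in every LysoDC gate. The thinned share was 4.42% of all LysoDCs (112 of 2532, 3.66 to 5.30), leaving out 182 shallower cells. By gate it was 4.37% of follicular (2.82 to 6.43), 5.64% of immature (3.96 to 7.75), 4.58% of intermediate (3.34 to 6.13) and 2.36% of mature LysoDCs (1.14 to 4.29). The intervals of the immature and mature gates then overlapped. Thinning left out 72 follicular, 34 immature, 45 intermediate and 31 mature cells.

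The cDC2s of the same library also held cells that met the rule, 4.23% of immature (41 of 970, 3.05 to 5.69) and 6.90% of maturing cDC2s (18 of 261, 4.14 to 10.7). At 5000 UMIs these shares were 4.07% and 7.24%. Among 3272 blood cells of the library 0 met the rule, which allows a share of up to 0.092% by a limit of 3 counts (exact upper bound 0.113%), and at 5000 UMIs 0 of 923 did, which allows up to 0.325% (exact upper bound 0.399%). Dataset 2, whose cells the rule was not drawn from, gave 4.55% of LysoDCs (31 of 681, 3.11 to 6.40) and 3.56% after thinning (2.19 to 5.44). Its hashtags B0306, B0308 and B0310 gave 4.69%, 4.05% and 4.196%, while B0301 marked 4 cells, 2 of them cycling. Its DN blood cells, negative for Ly6C and CD43, met the rule in 4 of 4971 cases (0.0805%).

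**Figure D1:**
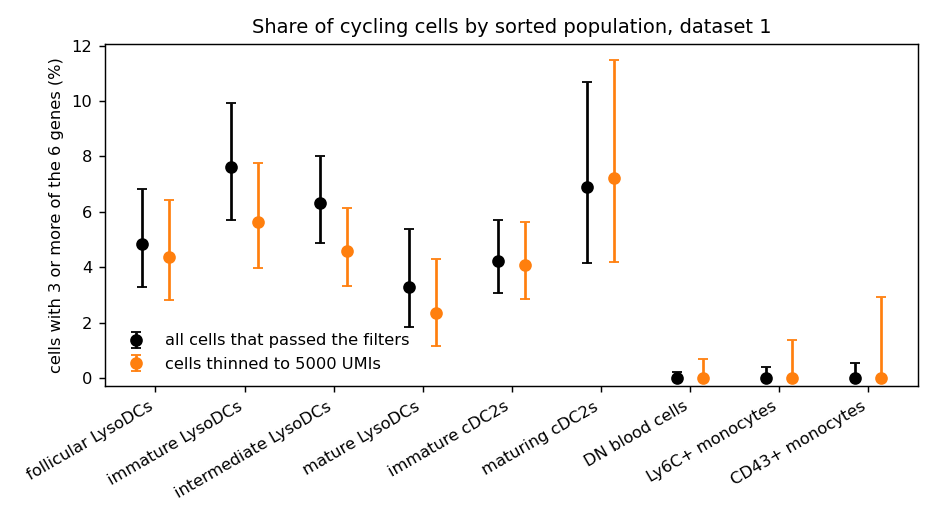
Percent of cells with at least 3 of the 6 genes in each sorted population of dataset 1, for all cells that passed the filters (black) and for cells thinned to 5000 UMIs (orange), with exact 95% intervals. LysoDC gates lie between 3.30% and 7.63%, or 2.36% and 5.64% after thinning, and the 3 blood populations lie at 0.

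The number of the 6 genes per cell had a second peak at its upper end. Of all LysoDCs, 1181 had 0 of the genes, 1174 had 1, 202 had 2, 33 had 3, 22 had 4, 21 had 5 and 81 had all 6. Cells with 6 of 6 numbered 15 in the follicular, 25 in the immature, 34 in the intermediate and 7 in the mature gate. In cycling cells Mki67 was detected in 155 of 157, Top2a in 143, Birc5 in 142, Ube2c in 116, Cenpf in 113 and Nusap1 in 109. Summed over cycling cells, Top2a stood at 592 CPM (counts per 1000000 summed UMIs), Mki67 at 509, Ube2c at 387, Birc5 at 385, Cenpf at 269 and Nusap1 at 177. The cycling LysoDCs of dataset 2 had 651, 682, 321, 384, 384 and 189 CPM of the same genes.

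**Figure D2:**
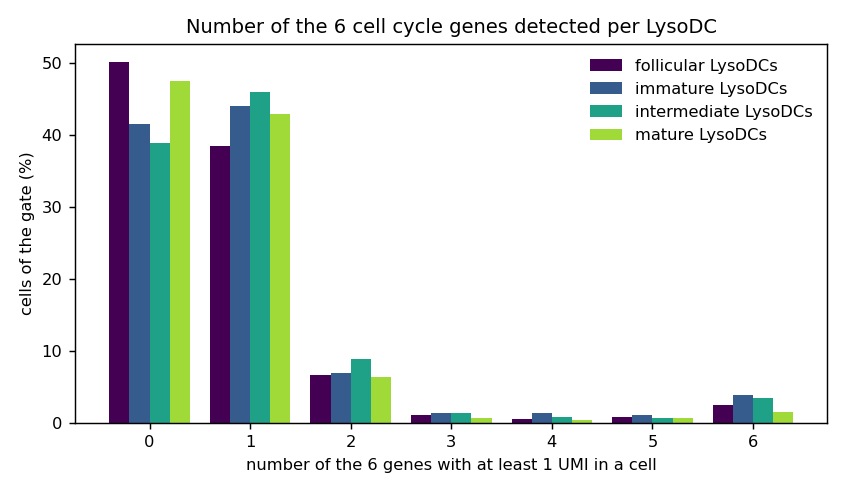
Percent of the LysoDCs of each sort gate (bars, 4 gates of dataset 1) by the number of the 6 genes with at least 1 UMI. Most cells of every gate have 0 or 1 of the genes, few have 3 to 5, and the count goes up again at 6 (81 cells in all).

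Mki67 alone was widespread in LysoDCs without the rest of the set. At least 1 Mki67 UMI was present in 50.0% of LysoDCs (median depth 13103.5 UMIs), against 18.3% of cDC2s (7396 UMIs) and 3.30% of blood cells (4281 UMIs) in the same library. With every cell thinned to 5000 UMIs the shares were 28.2% of 2532 LysoDCs, 14.2% of 1080 cDC2s and 1.95% of 923 blood cells. As CPM of summed UMIs, Mki67 stood at 96.5 in LysoDCs, 77.4 in cDC2s and 8.38 in blood cells. Mki67 was the only one of the 6 genes in 1012 LysoDCs, or 37.3% of them. Of these, 580 held 1 Mki67 UMI and 29 held 5 or more, up to 13. The 202 cells with 2 genes paired Mki67 with Top2a in 115 cases. The 2 genes together did not meet the rule.

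To see what cells on either side of the rule expressed, UMIs of an S phase list of 43 genes and of a G2 and mitosis list of 47 genes, neither holding any of the 6 genes, were counted per 10000 UMIs in each cell. LysoDCs with Mki67 alone had medians of 4.06 for S phase and 5.84 for G2 and mitosis, close to the 3.91 and 5.68 of cells with 0 of 6. Just outside the rule, cells with exactly 2 genes had medians of 4.38 and 5.79. Just inside it, cells with exactly 3 genes had 7.49 and 17.2, and cells with all 6 had 22.7 and 67.6. Over all cycling LysoDCs the medians were 23.6 (interquartile range 6.64 to 46.6) for S phase and 46.5 (25.9 to 68.7) for G2 and mitosis. Of the 2557 LysoDCs outside the rule, 25 reached the cycling cells' S phase median and 2 their G2 and mitosis median. Of those 25 cells, 12 had 2 of the 6 genes, 4 had Mki67 alone and 5 had 0 of the 6.

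Cycling LysoDCs varied widely in the level of each list, and the 2 lists hardly tracked each other across cells. Split at the medians, 48 of 157 cells were high for S phase and low for G2 and mitosis, 48 were the reverse, 31 were high for both and 30 low for both. The equal 48 and 48 follow from cutting both lists at their medians and do not show groups of equal size. Across the 157 cells of 1 library the lists correlated at a Spearman rho of -0.06 and a Pearson r of -0.17. From the follicular to the mature gate, the S phase medians of cycling cells were 30.8, 34.9, 14.2 and 23.6. The G2 and mitosis medians were 42.7, 39.1, 54.5 and 65.8 in the same order. The interquartile ranges of all 4 gates overlapped for both lists, the mature gate resting on 15 cells. Single genes gave the same mixture: Rrm2, the S phase subunit of ribonucleotide reductase, and Ccnb2 were both present in 44 cells, Rrm2 without Ccnb2 in 46, Ccnb2 without Rrm2 in 43 and neither in 24. In the 31 cycling LysoDCs of dataset 2 the medians were 23.2 for S phase and 56.7 for G2 and mitosis.

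**Figure D3:**
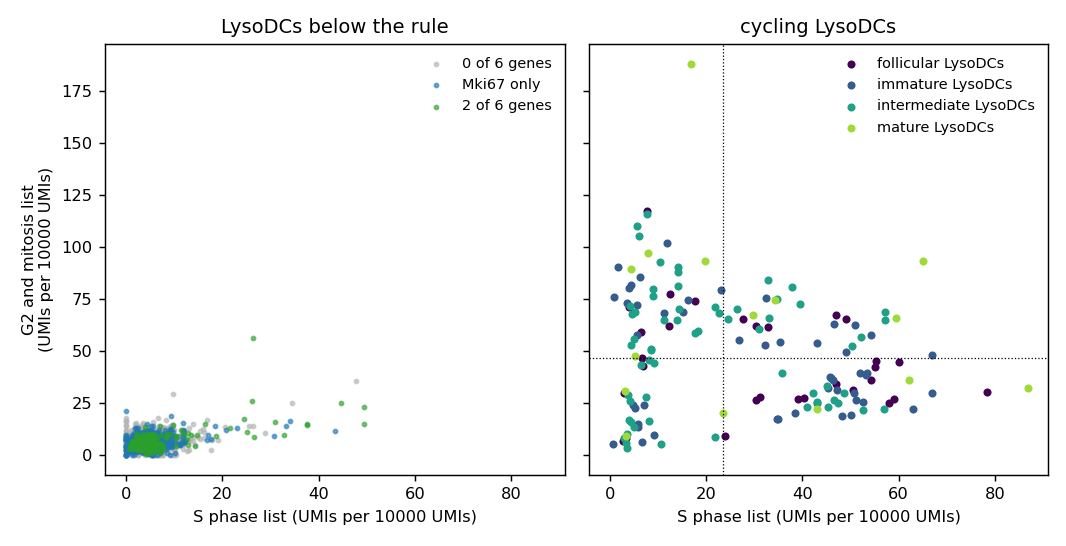
UMIs of the S phase list (x axis) and of the G2 and mitosis list (y axis) per 10000 UMIs, 1 point per LysoDC of dataset 1, for cells below the rule (left, by number of the 6 genes) and for cycling cells (right, by gate, dotted lines at the medians of 23.6 and 46.5). Cells below the rule crowd near the origin, and cycling cells spread along both axes.

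Cycling LysoDCs had higher levels of many genes and lower levels of fewer. Sums of UMIs over cycling cells were compared with sums over cells with 0 of the 6 genes, the latter weighted to the gate make-up of the cycling cells. A gene with at least 100 UMIs was counted when it differed at least 2-fold and in the same direction in each gate with at least 20 cycling cells (follicular, immature and intermediate). Of 8164 genes other than the 6, 500 were higher in cycling LysoDCs (6.12%) and 142 lower (1.74%). With TMM scaling, which shifted all log2 ratios by -0.11, 412 were higher and 202 lower, so that 67.1% in place of 77.9% of the counted genes were higher. The median log2 ratio over all 8164 genes was 0.06, or -0.05 with TMM scaling. More of all genes thus lay above 0 than below it, and with TMM scaling more lay below. Counts of list genes above or below 0, with or without the limit on UMIs, have no exact share of all genes beside them. They are a description of the lists. With 1 pool per gate there is no replicate, and intervals of CPM and of log2 ratios below are exact Poisson intervals for counting error.

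Dataset 2 gave its own values for the same genes in cells of other mice. Of the 500 higher genes, 483 were also above the 0 of 6 cells there and 394 at least 2-fold so, against 56.6% and 9.13% of all 8164 genes. Of the 142 lower genes, 127 were below there and 67 at least 2-fold so, against 43.4% and 7.12% of all genes. Both datasets used the same 6 genes to pick cells. Because cycling cells were deeper, each was also paired with a cell of its gate with 0 of the 6 genes and a similar UMI count (median 16396 UMIs). Among 5241 genes that then had at least 100 UMIs, 361 were higher (6.89%) and 21 lower (0.401%). Of the higher genes 346 were tested again and 316 counted again, and of the lower genes 37 and 21.

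The 12 largest ratios among well expressed higher genes belonged to genes of nucleotide supply, mitosis and chromosome handling. They were Rrm2, Hmmr, Aspm, Pbk, Pclaf, Ccna2, Ccnb2, Kif4, Esco2, Cdca3, Plk1 and Cdc20. Their levels ran from 52.7 to 511 CPM in cycling LysoDCs, whereas cells with 0 of the 6 genes held 1 to 16 UMIs of each. Pclaf, which encodes a partner of the replication clamp PCNA, stood at 511 CPM against 1.23 (log2 ratio 8.70, 7.88 to 9.61). Rrm2 stood at 101 CPM (269 UMIs) against 0.0964 (1 UMI), a log2 ratio of 10.04 with an interval of 7.38 to 15.51. Rrm2 levels in cycling cells were 133, 112, 83.9 and 91.1 CPM from the follicular to the mature gate. The highest gate level of the other cells was 0.306 CPM, from that 1 UMI.

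Genes of DNA replication were among the higher genes, which made up 6.12% of all tested genes. Of 38 tested genes for replication origins and forks (47 in the list), 35 were at least 2-fold higher and 0 lower, with a median log2 ratio of 2.33 in dataset 1 and 2.41 in dataset 2. Of the 38, 15 passed the limit of 100 UMIs only through cycling cells. Over the whole list, which no such limit shaped, 46 of 47 members had a higher CPM in cycling cells, also with TMM scaling, and the sum was 2553 CPM against 623. The helicase subunit Mcm7 stood at 134 CPM against 9.57 (log2 3.81, 3.39 to 4.23), and the ligase gene Lig1, which joins Okazaki fragments, at 129 against 7.96. Uhrf1, which carries DNA methylation onto new strands, was at 82.1 CPM against 1.80, and Prim1, the primase that starts each fragment, at 42.9 against 1.38.

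Nucleotide synthesis showed 12 of 21 tested genes higher and 0 lower (median log2 1.13), beside 6.12% higher among all tested genes. Of the 21, 5 passed the limit only through cycling cells. With no limit on UMIs, 21 of 22 members had a higher CPM in cycling cells, also with TMM scaling. Tk1, thymidine kinase, reached 88.5 CPM against 2.67, and Tyms, thymidylate synthase, 120 against 7.29. Rrm1, the large subunit of ribonucleotide reductase, stood at 126 CPM against 7.65. DNA repair and replication checkpoint genes were higher in 13 of 14 tested cases and lower in 0 (median log2 2.48), and 10 of the 14 passed the limit only through cycling cells. The count and median of this list are therefore no support for a difference. Without the limit, all 22 members of it had a higher CPM in cycling cells, also with TMM scaling. Clspn, which relays stalled forks to the checkpoint kinase, was at 97.1 CPM against 2.10.

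Histone and chromatin genes had a median log2 ratio of 3.13, with 20 of 21 tested genes higher and 0 lower, beside 6.12% higher among all. Of the 21, 7 passed the limit of 100 UMIs only through cycling cells. With no limit on UMIs, 25 of 26 members had a higher CPM in cycling cells, also with TMM scaling. Hist1h1b, a linker histone, stood at 684 CPM against 4.12 (log2 7.38, 6.92 to 7.85), with 908, 685, 560 and 830 CPM from the follicular to the mature gate. The other cells had 2.25 to 9.73 CPM of it over the gates, from 61 UMIs, so it too passed the limit only through cycling cells. H2afz, a replacement histone H2A, was at 3172 CPM against 953, and Hmgb2, a DNA-bending chromatin protein, at 788 against 64.3. Histone genes have near-identical copies, so reads of one can be counted for another, and their transcripts mostly lack the poly(A) tail by which these libraries captured RNA.

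Cyclins and their kinases split by phase. Of 17 tested genes 13 were higher and 1 lower (median log2 3.24), and 9 had under 100 UMIs in the other cells. The count of higher genes and the median are therefore no support for a difference. Without a limit on UMIs, 17 of 20 members had a higher CPM in cycling cells and 3 a lower one, also with TMM scaling. The cyclins of S phase and mitosis were among the higher genes, with Ccne2 at 47.8 CPM against 0.550, Ccnb1 at 83.6 against 0.932 and Cdk1, the mitotic kinase, at 98.2 against 1.63. Ccnb2, whose upstream sequence is printed above, stood at 98.2 CPM against 0.248. The D cyclins, which answer to growth factors at the start of the cycle, did not share this. Ccnd3 had a log2 ratio of 0.76 and Ccnd1 of -0.37, and Ccnd2 was lower. Their partner Cdk4 was at 104 CPM against 42.0 and Cdk6 at 33.5 against 36.1.

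Ccnd2, on chromosome 6 (127125162 to 127152193, GRCm38), had the largest ratio among the well expressed lower genes. Cycling cells held 16.9 CPM in the follicular, 20.3 in the immature, 25.2 in the intermediate and 111 in the mature gate. Cells with 0 of the 6 genes held 72.9, 67.7, 143 and 231 CPM in the same gates. Ccnd2 was thus below the other cells in all 4 gates, though cycling mature cells were above the other follicular and immature cells. Over all gates the level was 32.0 CPM against 118 (log2 -1.89, -2.28 to -1.51). Dataset 2 gave 8.12 CPM against 86.1, and the cells paired on UMIs a log2 ratio of -1.72.

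Many genes of mitosis had few UMIs in cells with 0 of the 6 genes. Of 19 tested kinetochore and checkpoint genes 18 were higher and 0 lower, with a median log2 of 5.39. The other 13 of the 32 in the list had under 100 UMIs, and 14 of the 19 passed that limit only through cycling cells, so the count and the median are no support for a difference. With no limit on UMIs, all 32 members had a higher CPM in cycling cells, also with TMM scaling. Cenpe, a kinetochore motor, stood at 148 CPM against 1.08, Cenpa, the centromeric histone, at 135 against 1.61, and Knl1 and Spc24, parts of the microtubule-binding network, at 124.97 against 0.850 and 157 against 1.04. Of 29 tested spindle, motor and cytokinesis genes 28 were higher and 0 lower (median log2 4.73), and 20 of the 29 passed the limit only through cycling cells. This count and median are likewise no support for a difference. Over the whole spindle list, without the limit, all 37 members had a higher CPM in cycling cells, also with TMM scaling. Kif11, the motor that pushes spindle poles apart, was at 93.3 CPM against 0.504. Stmn1, which destabilises microtubules, reached 1146 CPM against 18.9.

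Chromosome structure and mitotic exit followed with smaller ratios, where 6.12% of all tested genes were higher. Of 18 tested condensin, cohesin and nuclear lamina genes 14 were higher and 0 lower (median log2 1.96), and 3 of the 18 passed the limit only through cycling cells. The condensin core Smc2 was at 207 CPM against 15.1, Smc4 at 191 against 22.6 and the lamin gene Lmnb1 at 161 against 7.65. Of 17 genes of the anaphase-promoting complex and mitotic exit 9 were higher and 0 lower (median log2 1.10), and 2 of the 17 passed the limit only through cycling cells. Ube2s, which extends ubiquitin chains for the complex, was at 410 CPM against 84.8, and Fbxo5, its inhibitor in S phase and G2, at 54.2 against 1.16. The subunits of the complex itself had lower ratios, such as Anapc5 with a log2 of 1.35 and Cdc27 with 1.27.

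Among the transcription factors of the cycle, 7 of 11 tested genes were higher and 0 lower (median log2 1.43). Over all tested genes the shares were 6.12% and 1.74%. Of the 11, 4 passed the limit of 100 UMIs only through cycling cells. With no limit on UMIs, 15 of 20 members had a higher CPM in cycling cells and 4 a lower one. Mybl2, which encodes B-Myb, stood at 33.1 CPM against 1.02, E2f2 at 25.2 against 3.11, E2f1 at 64.4 against 23.8 and Tfdp1, the dimer partner of E2F proteins, at 31.2 against 10.2. Genes that restrain the cycle were mostly between the limits, with 3 of 13 higher and 0 lower (median log2 0.35). The 3 were Cdkn3, a phosphatase that acts on CDKs, at 64.7 CPM against 0.570, Rbl1, a retinoblastoma family member, at 29.4 against 3.79, and the CDK4 and CDK6 inhibitor gene Cdkn2d at 82.1 against 14.9. Cdkn3 and Rbl1 had 7 and 52 UMIs in the other cells, so both passed the limit only through cycling cells. Cdkn2d was above the other cells in each gate, at 65.1, 84.9, 83.0 and 94.5 CPM against 11.97, 13.8, 16.4 and 17.0. The inhibitor genes Cdkn1a and Cdkn1b had log2 ratios of -0.48 and 0.54, and the antiproliferative Btg1 stood at 338 CPM against 505.

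**Figure D4:**
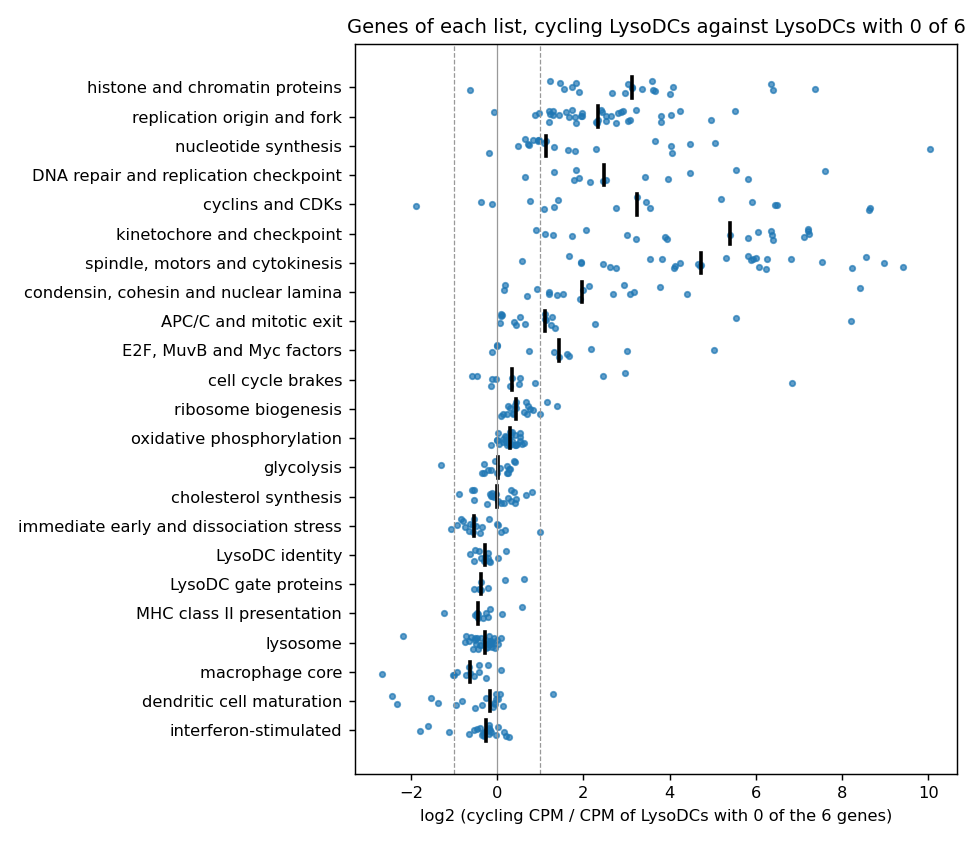
Log2 ratio of CPM, cycling LysoDCs over LysoDCs with 0 of the 6 genes, for each tested gene (points, spread vertically at random) of 23 gene lists, with the list median as a bar, a line at 0 and dashed lines at 2-fold. Lists of replication and mitosis lie to the right. Lists of LysoDC identity, MHC class II, lysosome and macrophage genes lie slightly left of 0. In the kinetochore (median 5.39), spindle, cyclin and DNA repair lists most tested genes passed the limit of 100 UMIs only through cycling cells. The medians of these lists are therefore no support for a difference.

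Growth and energy genes differed little beside this. Over all tested genes 6.12% were higher and 1.74% lower, and the median log2 ratio was 0.06, or -0.05 with TMM scaling. Of 19 tested ribosome biogenesis genes 2 were higher, the snoRNP genes Gar1 (28.6 CPM against 11.01) and Nop56 (88.1 against 39.4), and all 19 had a log2 ratio above 0, or 18 with TMM scaling (median 0.45). Of 30 oxidative phosphorylation genes 0 passed 2-fold and 28 had ratios above 0, or 25 with TMM scaling (median log2 0.29). Cytochrome c, Cycs, stood at 408 CPM against 267. Glycolysis genes had a median log2 of 0.03 over 16 tested genes, or -0.08 with TMM scaling, with 1 lower, Pfkfb3, the kinase that makes an activator of glycolysis, at 51.2 CPM against 125.2. Cholesterol synthesis genes had 0 of 22 past 2-fold, with 11 above and 11 below 0, or 9 and 13 with TMM scaling.

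Cycling LysoDCs kept LysoDC transcripts at high levels. Of 13 tested identity genes 0 passed 2-fold, 11 had ratios below 0 and the median log2 was -0.29. Lyz2, a lysozyme gene, had 37583, 30482, 28984 and 18239 CPM in cycling cells from the follicular to the mature gate, each below the 43319, 36786, 35485 and 30313 of the other cells. Lyz1, the second lysozyme gene, was at 10664 CPM against 13042 and C1qa, a chain of complement C1q, at 7763 against 8984. Lyz1 and Lyz2 are close paralogs, so reads may be split between them. Csf1r, which encodes CD115, the receptor for the macrophage growth factor CSF-1, was at 607 CPM against 934 (log2 -0.62, -0.72 to -0.53). Mertk, a receptor for dying cells, was at 32.7 against 47.8 and Cx3cr1 at 309.02 against 305.8. With TMM scaling 12 of the 13 ratios were below 0, Cx3cr1 being the one that flipped, and the median log2 was -0.40. CPM are shares of a fixed total, and the 500 higher genes took 4.58% of the UMIs of cycling cells against 1.20% of the others.

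Of 9 genes of proteins used in the sorts, Cd4 and Cd101 had under 100 UMIs and could not be ordered by gate. Of the other 7, 3 had the same order of gates in cycling and other cells, F11r, Emb and Mertk. Orders can turn on small differences, such as Itgax at 284 CPM in follicular and 265 in immature cycling cells. F11r, which encodes JAM-A, had 0 UMIs in follicular cycling cells and 4.78, 44.2 and 74.2 CPM in those of the immature, intermediate and mature gates, against 2.11, 10.4, 55.1 and 90.0 in the others. Emb, embigin, ran from 12.05 CPM to 84.9, 124 and 172, against 19.7, 78.1, 109 and 131. Cd24a had 53.0, 1.20, 3.61 and 77.6 CPM in cycling cells from the follicular to the mature gate, against 4.23, 4.29, 7.99 and 61.2. Its levels in immature and intermediate cycling cells rest on few UMIs. Itgam, which encodes CD11b, was at 38.5, 105, 127 and 138 CPM, against 64.8, 130, 149 and 103, so that it was higher in cycling cells of the mature gate alone. MHC class II presentation genes had 11 of 13 ratios below 0, or 12 with TMM scaling (median log2 -0.44) and 1 past 2-fold, H2-Eb2 (24.5 CPM against 57.1). Over all tested genes 1.74% were lower. Cd74, the invariant chain, was lower in all 4 gates, at 16372 CPM against 22743 overall.

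**Figure D5:**
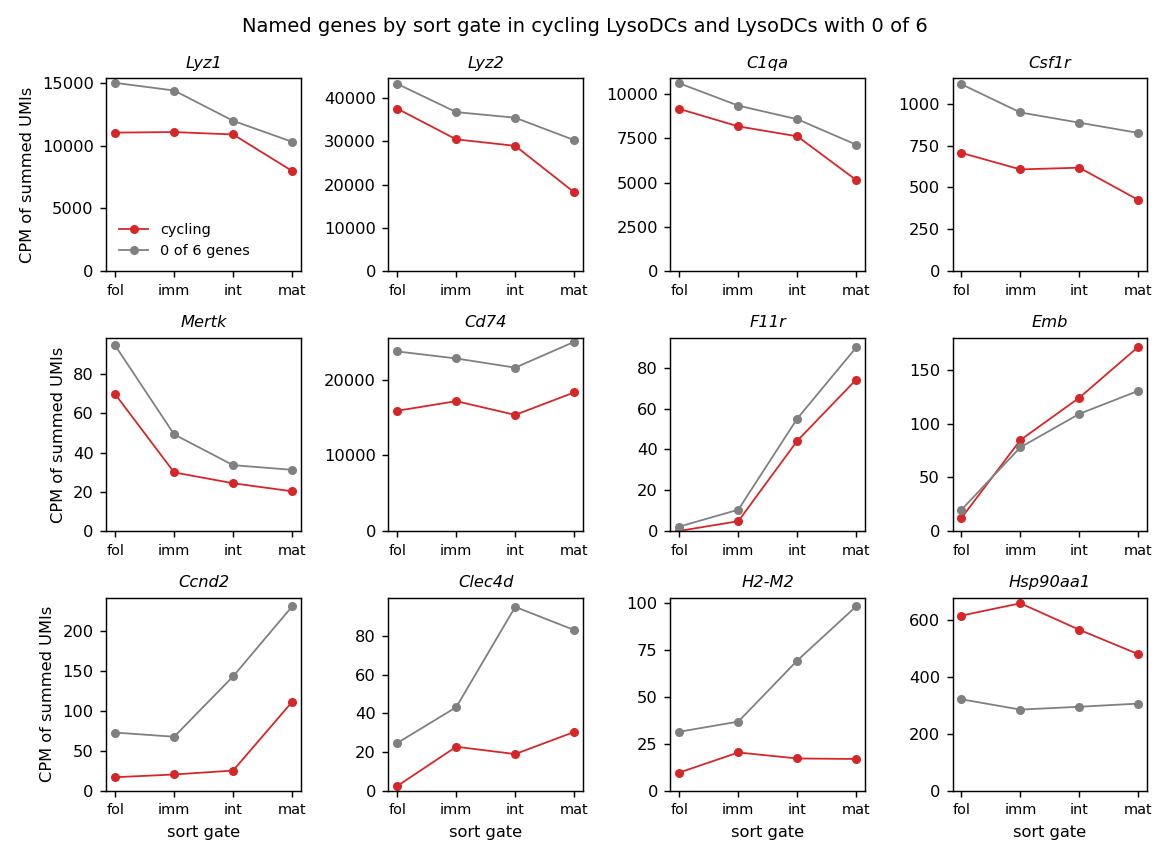
CPM of summed UMIs (y axes from 0) of 12 genes in the follicular, immature, intermediate and mature gates of dataset 1 (fol, imm, int, mat), for cycling LysoDCs (red) and LysoDCs with 0 of the 6 genes (grey), 1 sum per point. F11r and Emb climb with the gates in both, Ccnd2, Clec4d and H2-M2 are lower in cycling cells, and Hsp90aa1 is higher.

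The other well expressed lower genes included surface receptors and enzymes of phagocytes. Clec4d, a C-type lectin receptor, stood at 2.41, 22.7, 18.9 and 30.4 CPM from the follicular to the mature gate, against 24.6, 43.2, 95.03 and 83.1. H2-M2, a nonclassical MHC class I gene, stood at 9.64, 20.3, 17.1 and 16.9, against 31.3, 36.7, 69.2 and 98.1. Cycling cells were below the other cells of their gate for both genes. Il4i1, an amino acid oxidase, was at 177 CPM against 457 (log2 -1.37, -1.54 to -1.20), Ltc4s, leukotriene C4 synthase, at 130 against 328, the tetraspanin Tspan10 at 32.4 against 96.1 and Slamf7, a SLAM family receptor, at 24.8 against 77.2. The MYC antagonist gene Mxd4 was at 27.9 CPM against 64.5, Slfn5 at 21.1 against 52.6 and Myof, a membrane repair protein, at 30.9 against 70.0. In the cells paired on UMIs these genes and Ccnd2, Pfkfb3 and H2-Eb2 had log2 ratios from -1.72 to -1.02. The 12 genes were named on the condition that dataset 2 had the same direction, and their smallest log2 differences there were those of H2-Eb2 at -0.44 and Myof at -0.21.

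Broader lists of mature phagocytes leaned the same way with few genes past 2-fold. Over all tested genes 1.74% were lower and 6.12% higher, and the median log2 ratio was 0.06, or -0.05 with TMM scaling. Macrophage core genes had 12 of 13 ratios below 0, or 13 with TMM scaling (median log2 -0.62) and 3 lower genes, among them Cd14, a coreceptor for bacterial lipopolysaccharide, with 0 UMIs against 7.16 CPM, at least 6.34-fold lower by a floor of 3 UMIs over the group. Lysosome genes had 29 of 31 below 0, or 31 with TMM scaling (median log2 -0.29) and 1 lower gene, the proton pump subunit Atp6v0d2, at 1.88 CPM against 8.52. Dendritic cell maturation genes had 3 lower and 1 higher of 18 (median log2 -0.17), Cd83 and Il12b each resting on 4 UMIs in cycling cells, Il12b turning to a log2 ratio of 1.54 with a rule of 2 or more genes, and Marcksl1 being the higher one at 45.5 CPM against 18.5. Interferon-stimulated genes had 3 lower of 22 (median log2 -0.26), Ifit3, Cxcl9 and Rsad2. Genes of the classical Ly6C-high monocyte had 0 of 10 past 2-fold (median log2 -0.14), and growth factor receptor genes 1 of 11, Csf2rb2, with 11 UMIs in cycling cells and a log2 ratio of 0.059 against the cells paired on UMIs.

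Immediate early and dissociation stress genes had 0 of 19 past 2-fold with the same direction in the gates, and 15 had ratios below 0, or 17 with TMM scaling (median log2 -0.55). Hsp90aa1, a stress-inducible HSP90 chaperone, stood just under the limit, at 592 CPM against 297 (log2 0.997, 0.88 to 1.11), and was higher in all 4 gates. Junb was at 49.7 CPM against 86.0 and Klf2 at 33.9 against 60.3.

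Genes of B and plasma cells were present in a few cycling cells. Mzb1, a chaperone of antibody-secreting cells, was at 50.4 CPM against 9.50, Jchain, the joining chain of polymeric antibodies, at 26.7 against 9.83, and Cd79a, a B cell receptor chain, at 41.0 against 12.7. UMIs of these 3 genes were found in 11 of 157 cycling cells, and 5 cells held 97.8% of the 314 UMIs. In the other cells they were concentrated in the mature gate, with 71.3 CPM of Mzb1, 85.1 of Jchain and 82.7 of Cd79a. The plasma cell list of 6 genes summed to 173, 53.8, 11.7 and 395 CPM from the follicular to the mature gate in cycling cells, and to 18.3, 16.2, 16.0 and 181 in the other cells. The B cell list of 10 genes, most of it Cd79b, summed to 221 CPM against 218, with Pax5 at 0 in cycling cells. From the follicular to the mature gate it summed to 345, 153, 155 and 486 CPM, against 281, 230, 180 and 235. It was thus higher in follicular and mature cycling cells and lower in the other gates. The germinal centre B cell list summed to 32.0 CPM against 48.2, with Rgs13 and Gcsam at 0. Without the 11 cells 485 genes were higher and 158 lower. Cycling LysoDCs of dataset 2 had 0 UMIs of Mzb1, Jchain and Cd79a.

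Markers of the remaining cell types were at low levels. Of the T cell list Cd3e, Cd8a, Cd28 and Themis were at 0 in cycling cells and the list summed to 2.26 CPM against 13.8. NK and innate lymphoid cell genes summed to 3.01 CPM against 9.25, neutrophil genes to 4.14 against 1.35, platelet genes to 10.5 against 17.5, stromal and endothelial genes to 3.76 against 9.39 and epithelial genes to 12.8 against 16.6. The cDC1 genes Xcr1 and Clec9a were at 0, while Batf3, a dendritic cell transcription factor on that list, was at 78.3 CPM against 39.7. The cDC2 list summed to 227 CPM against 300 and the plasmacytoid list, which holds the broadly expressed Bst2, to 964 against 1321.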

How the data were processed

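Messenger RNA and hashtag UMIs of single cells were analysed in dataset 1 (1 library, 9 hashtagged populations) and, side by side, in dataset 2. The authors deposited raw UMI counts per gene and barcode, written by Cell Ranger 6.0.1 per the file headers, while the submitters' processing notes name Cell Ranger 2.0.0 and mm10. Of 32285 gene identifiers, 32235 (99.8%) matched GRCm38 annotation. Hashtags were called with HTODemux of Seurat 5.3.0 (quantile 0.99). Barcodes with several hashtags were removed as doublets, and no other doublet caller was run. Cell filters, the rule and the limits for genes are given with the results. Ratios are of summed counts in CPM, with Garwood intervals for cycling cells and Fay-Feuer intervals for the weighted comparison, and the interval of a ratio combines both. Against 0 UMIs a floor of 3 counts was used. Cells are not replicates and each gate is 1 pool, so no p-value was computed. Calculations used Python 3.11.15, scipy 1.17.1 and edgeR 4.0.16 (TMM only), and the counting of genes was tested on simulated data. Named genes are the 6 genes, the 12 largest ratios each way with at least 50 CPM and the same direction in dataset 2, up to 5 genes per list by size, and all identity and gate genes. Some genes that this rule names are not reported here. Other genes named (H2afz, Hmgb2, Stmn1, E2f1, Ccnd1, Ccnd3, Cdk4, Cdk6, Cdkn1a and Cdkn1b) were chosen after their values were seen. The members, gene lists and rules were chosen with earlier results of these data known.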

Additional observations from a re-analysis of the deposited data

Results flagged for a closer look

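Barcodes with several hashtags, which were removed and enter no comparison, also met the rule for cycling cells, above the 0 of 3272 seen in blood cells of dataset 1. The share was 5.05% in dataset 1 (105 of 2078 past the cell filters, exact 95% interval 4.15 to 6.08) and 5.23% in dataset 2 (162 of 3099, 4.47 to 6.07). The LysoDCs and cDC2s of dataset 1, which can contribute to such barcodes, had shares of 5.78% and 4.79%. Such a barcode can hold cells of more than 1 population, and the population of its cycling transcripts was not determined.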

How the results depend on the processing

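The share of cycling LysoDCs depends on the rule and on depth. With 2 or more genes it was 13.2% of all LysoDCs and 11.4%, 14.5%, 15.2% and 9.67% from the follicular to the mature gate. It was 4.57% with 4 or more genes, 4.42% thinned to 5000 UMIs (immature 5.64%, intermediate 4.58%), 4.91% without cell filters and 4.70% without the 5% deepest cells of each gate (mature 1.85%). Hashtag calls changed the cell numbers more than the shares. At quantile 0.95, 1838 of the 2714 LysoDCs remained and 5.60% were cycling. With at least 80% of hashtag UMIs from 1 tag, the follicular gate fell from 621 to 182 cells, 9 of them cycling (4.95%). Higher genes numbered 1087 at 1.5-fold, 249 at 3-fold, 827 with at least 20 UMIs, 135 with at least 500 and 259 with 2 or more genes as the rule. Lower genes numbered 529, 35, 433, 26 and 24 in the same settings, 279 against all other LysoDCs and 21 against cells paired on UMIs (0.401% of 5241 tested genes). Leaving out a gate gave 389 to 455 higher and 133 to 155 lower genes. The G2 and mitosis median was 58.2 with 4 or more genes. Among named genes 3 log2 ratios changed sign: Il12b to 1.54 with 2 or more genes, Csf2rb2 to 0.059 against paired cells and Jchain to -2.64 without the 11 cells with UMIs of B and plasma cell genes, an alternative chosen after seeing the data. The cause was not tested. No paired analysis was possible because the labels give no replicate numbers, and cells were only matched within gates of 1 pool.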
